A study of Mus musculus with 24 samples.

Results

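The NRF2 pathway and glutathione synthesis genes described here are 10: Nfe2l2, Keap1, Nqo1, Gclc, Gclm, Gss, Gsr, Txnrd1, Srxn1 and Slc7a11. They were taken by gene symbol from a table of read counts in mouse liver that holds 35304 genes. All 10 were in the table, and 9 of them were among the 17275 genes with enough counts to be tested; Slc7a11 was not. HepKO livers came from Alb::Cre +/0, Bmal1 fl/fl mice, and HepWT livers from Alb::Cre 0/0, Bmal1 fl/fl mice, so both genotypes carried the floxed clock gene Bmal1 (listed as Arntl). All mice were C57BL/6, 8 to 12 weeks old, and fed at night only. Sampling covered 6 zeitgeber times (ZT, where ZT0 is lights on): ZT2, ZT6, ZT10, ZT14, ZT18 and ZT22. Each genotype had 2 libraries per time, 12 in all, which makes 24 libraries. The albumin promoter drives Cre in hepatocytes, so the other cells of a HepKO liver keep Arntl, and no mouse carried Cre without the floxed gene. The labels do not say whether the 2 libraries of a group came from separate animals, so every p-value reflects only how far these samples spread, which may be technical.

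NRF2, the product of Nfe2l2, is a transcription factor that drives genes against oxidants and reactive electrophiles. KEAP1 holds it in the cytoplasm and presents it to a CUL3 ubiquitin ligase for destruction; oxidants modify cysteines of KEAP1, NRF2 then accumulates, pairs with a small MAF protein in the nucleus and binds antioxidant response elements. Liver is the main maker of glutathione, the most abundant small thiol of cells, which it also exports and uses to conjugate drugs and bile constituents. Glutamate-cysteine ligase joins glutamate to cysteine in the step that limits the rate, glutathione synthetase adds glycine, and glutathione reductase returns the oxidised dimer to glutathione.

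The libraries set some limits on these comparisons. Total counts were 12997689 to 16910415 in 5 HepKO libraries, all replicate 2 (every time but ZT2), whereas the remaining 19 held 23583035 to 30677807. In the deposited table the same 5 columns have an added suffix of unknown meaning, so these libraries may differ from the rest in more than depth. Arntl, the deleted gene, lay between 10.3 and 17.7 CPM (counts relative to library size, scaled by trimmed means) in HepKO and between 1.27 and 46.0 CPM in HepWT; its fitted 24 h amplitude was 0.32 in HepKO and 2.27 in HepWT on the log2 scale (adjusted p of the difference = 0.00208), while its log2 mean over the day differed by 0.04 ± 0.07 (SE, adjusted p = 0.705). Those counts cover the whole gene and all cells. Of 2 clock-controlled genes, Nr1d1 averaged 3.14 CPM in HepKO and 17.5 CPM in HepWT (adjusted p = 2.49e-06), and Dbp 7.26 CPM in HepKO and 36.6 CPM in HepWT (adjusted p = 1.43e-07). Markers of cell types were counted next, where 13.2% of all tested genes were higher and 13.3% lower in HepKO over the 6 times. Of 8 hepatocyte markers 2 were higher and 1 was lower in HepKO. Their summed level was 37550 to 56069 CPM in HepKO and 74844 to 103792 CPM in HepWT, most of it Alb. All 8 Kupffer cell and macrophage markers were lower in HepKO (summed level 214 to 449 CPM in HepKO, 274 to 500 CPM in HepWT), as were 5 of 6 endothelial markers (288 to 350 CPM in HepKO, 331 to 377 CPM in HepWT). Against HepWT replicate 1 libraries alone 3 of each were lower, and without the 5 HepKO libraries of low depth all 8 and 2. In the latter fit 2886 of 17873 tested genes were called, 51.6% of them higher. Of 5 cholangiocyte markers tested, 2 were higher in HepKO (46.9 to 159 CPM in HepKO, 26.0 to 58.2 CPM in HepWT). Of 6 stellate cell and fibroblast markers 1 was higher and 2 were lower, 1 of 5 B and plasma cell markers was higher, and none of the tested T and NK cell, neutrophil or erythroid markers passed. No listed marker was at 0 in every library. The part of these markers in the differences given next was not tested, and in bulk liver fewer cells of a type and less RNA per cell cannot be told apart.

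Averaged over the 6 times, the 9 tested genes did not move as one. Gsr and Srxn1, which encode enzymes that reverse oxidation, were higher in HepKO. Gss, the synthetase of the last step of glutathione synthesis, and Keap1, the repressor of NRF2, were lower. Nfe2l2 itself, the ligase genes Gclc and Gclm, the thioredoxin reductase gene Txnrd1 and the quinone reductase gene Nqo1 did not pass the test. Passing 4 of 9 compares with 26.5% of all tested genes in edgeR's quasi-likelihood test at an adjusted p below 0.05, and higher and lower calls were 13.2% and 13.3% of all genes. The median log2 difference (HepKO minus HepWT) was 0.01 over the 9 genes and -0.01 over all genes. The largest of the 4 differences was 1.29-fold, that of Gss. Without the 5 HepKO libraries of low depth 2 of the 4 remained past the threshold, Gss and Srxn1, when 2886 of 17873 tested genes passed.

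**Figure D1:**
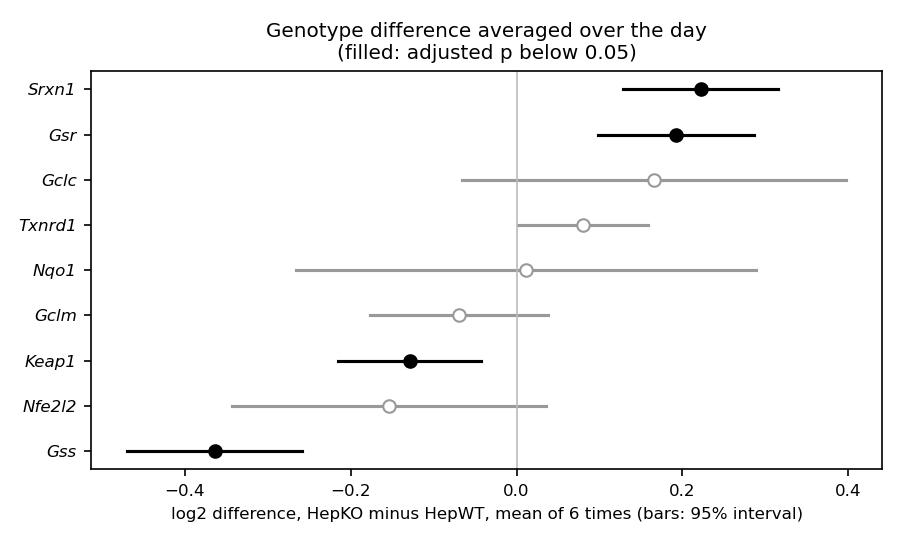
Log2 difference of HepKO minus HepWT, averaged over 6 times, for the 9 tested genes (points; bars are 95% intervals of the edgeR fit; filled points have an adjusted p below 0.05). Srxn1 at 0.22 and Gsr at 0.19 lie right of 0, Gss at -0.36 and Keap1 at -0.13 lie left of it, and the interval of Nqo1 is the widest, from -0.27 to 0.29.

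The regulators come first. Nfe2l2 (ENSMUSG00000015839, chr2:75675513-75704641 of GRCm38, minus strand) had 41.3, 53.0 and 70.8 CPM (lowest, median and highest of 12 libraries) in HepKO, against 39.1, 63.5 and 75.5 CPM in HepWT. The ranges overlap almost fully, and at 3 of 6 times both HepKO libraries lay below both HepWT libraries. Its log2 difference was -0.15 ± 0.09 (SE; 95% interval -0.34 to 0.04, adjusted p = 0.235), negative at 5 of 6 times. It passed without HepKO ZT14 replicate 2 (-0.22, adjusted p = 0.0397), the library with the highest Nfe2l2 in HepKO, and with no filter on low counts (-0.16, adjusted p = 0.0185). It was -0.082 (adjusted p = 0.529) without HepWT ZT14 replicate 1 and -0.094 (adjusted p = 0.418) without HepKO ZT14 replicate 1. Keap1 (ENSMUSG00000003308, chr9:21229730-21239361, minus strand) had 36.6, 38.8 and 43.0 CPM in HepKO, against 36.4, 43.5 and 47.6 CPM in HepWT. Its HepKO libraries were the less spread, with 39.1 ± 1.66 CPM (SD, n = 12) in HepKO and 42.8 ± 3.40 CPM in HepWT, and at 4 of 6 times both lay below both HepWT libraries.

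Keap1 was 1.09-fold lower in HepKO (log2 -0.13 ± 0.04, 95% interval -0.22 to -0.04, adjusted p = 0.0270), negative at 5 of 6 times. This was the least stable of the 4 calls. It was lost on leaving out any of 9 single libraries, with log2 differences of -0.13 to -0.12 and adjusted p from 0.0506 to 0.0740: HepKO ZT2 replicate 2, ZT6 replicate 1, ZT10 replicate 1, ZT14 replicate 1, ZT18 replicate 1 and ZT22 replicate 2, and HepWT ZT2 replicate 2, ZT6 replicate 2 and ZT14 replicate 1. It was also lost without the 5 libraries of low depth (-0.14, adjusted p = 0.110), against HepWT replicate 2 libraries alone (-0.11, adjusted p = 0.0888) and with no filter (-0.14, adjusted p = 0.0711). Exons of Keap1 share 510 bases with the antisense gene Gm16754, which had 0.436 CPM in HepKO and 0.586 CPM in HepWT; the kit was stranded, but no source used here gives the strand setting of the counting.

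Genes of glutathione synthesis differed among themselves. Gclc (ENSMUSG00000032350, chr9:77754535-77794485, plus strand), the catalytic subunit of the ligase, had the highest CPM of the 10 and the widest swing over the day. In HepKO its library pairs held 495 and 447 CPM at ZT2, 479 and 471 at ZT6, 313 and 474 at ZT10, 199 and 297 at ZT14, 254 and 295 at ZT18, and 408 and 311 at ZT22. The HepWT pairs held 463 and 465 CPM at ZT2, 415 and 429 at ZT6, 311 and 271 at ZT10, 260 and 117 at ZT14, 327 and 273 at ZT18, and 336 in both at ZT22. In both genotypes the early day was high and ZT14 was low, and the genotypes overlapped at 4 of 6 times; at ZT6 and ZT10 both HepKO libraries lay above both HepWT libraries. The log2 difference was 0.17 ± 0.11 (95% interval -0.07 to 0.40, adjusted p = 0.302), positive at 5 of 6 times. It passed without HepWT ZT14 replicate 1 (0.29, adjusted p = 0.0152) and with no filter (0.16, adjusted p = 0.0183), but was 0.088 (adjusted p = 0.494) without HepWT ZT14 replicate 2, and HepKO ZT10 replicate 2 also moved it when left out (0.11, adjusted p = 0.532). The 2.22-fold gap between the HepWT libraries of ZT14 was the widest gap of replicates for Gclc.

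Gclm (ENSMUSG00000028124, chr3:122245557-122270732, plus strand), the modifier subunit that raises the ligase's affinity for glutamate, was steadier. Its levels were 188, 213 and 248 CPM (lowest, median, highest) in HepKO, against 176, 225 and 265 CPM in HepWT. The genotypes overlapped at 5 of 6 times, and the log2 difference was -0.07 ± 0.05 (95% interval -0.18 to 0.04, adjusted p = 0.358). Leaving out 1 library gave -0.10 to -0.023, nearest 0 without HepWT ZT14 replicate 1 and next without HepKO ZT10 replicate 1 (-0.045).

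Gss (ENSMUSG00000027610, chr2:155563181-155592810, minus strand) carried the clearest change. In HepKO its library pairs held 45.3 and 37.6 CPM at ZT2, 47.9 and 52.6 at ZT6, 45.5 and 45.6 at ZT10, 46.7 and 55.5 at ZT14, 37.2 and 42.8 at ZT18, and 34.6 and 37.9 at ZT22. The HepWT pairs held 54.9 and 42.6 CPM at ZT2, 60.2 and 63.7 at ZT6, 67.8 and 65.1 at ZT10, 59.1 and 58.8 at ZT14, 50.0 and 55.4 at ZT18, and 49.2 and 52.8 at ZT22. Both HepKO libraries lay below both HepWT libraries at 5 of 6 times; only at ZT2 did the pairs overlap, where HepWT replicate 2 was the lowest HepWT library of the day. Gss was 1.29-fold lower in HepKO (log2 -0.36 ± 0.05, 95% interval -0.47 to -0.26, adjusted p = 2.92e-05), negative at 6 of 6 times. This call stood in every alternative run. Exons of Gss share 395 bases with Acss2 on the opposite strand, which encodes acetyl-CoA synthetase; Acss2 had 368 CPM in HepKO and 233 CPM in HepWT and moved the other way (log2 0.73 ± 0.16, adjusted p = 0.00205). The antisense genes Gssos1 and Gssos2 also overlap Gss, and both lay under 0.11 CPM.

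The sequence before the RefSeq start of Gss (GRCm38.p6, chr2:155592811-155593060, minus strand, 250 bases, written 5′ to 3′ along the gene) is shown because Gss is the gene with the largest difference; the window from 250 bases before to 50 after the start held no match to either motif searched below, so it has no capitals.
Gss upstream: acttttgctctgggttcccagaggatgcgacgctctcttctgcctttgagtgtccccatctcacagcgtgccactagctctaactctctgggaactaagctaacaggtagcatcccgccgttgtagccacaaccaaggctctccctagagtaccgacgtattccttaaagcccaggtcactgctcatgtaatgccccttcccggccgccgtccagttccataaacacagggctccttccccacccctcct

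Slc7a11 (ENSMUSG00000027737, chr3:49892526-50443614, minus strand), the exchanger that imports cystine, was barely counted. It had 10 counts in all, spread over 5 of 12 HepKO libraries, against 18 counts over 8 of 12 HepWT libraries, and no library held more than 6. At this depth no difference was detectable and none was tested. Hepatocytes are known to obtain cysteine largely from methionine by transsulfuration.

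Among the reductases, Gsr (ENSMUSG00000031584, chr8:33652523-33698163, plus strand), glutathione reductase, was higher in HepKO. In HepKO its library pairs held 105 and 103 CPM at ZT2, 115 and 114 at ZT6, 94.0 and 113 at ZT10, 108 and 118 at ZT14, 95.8 and 112 at ZT18, and 109 and 104 at ZT22. The HepWT pairs held 106 and 95.5 CPM at ZT2, 102 and 90.9 at ZT6, 103 and 95.9 at ZT10, 90.8 and 77.2 at ZT14, 94.4 and 83.8 at ZT18, and 93.5 and 97.8 at ZT22. The HepKO pair lay wholly above the HepWT pair at 4 times, and the pairs overlapped at ZT2 and ZT10. Gsr was 1.14-fold higher in HepKO (log2 0.19 ± 0.04, 95% interval 0.10 to 0.29, adjusted p = 0.0038), positive at 6 of 6 times. The call was lost without the 5 libraries of low depth (0.16, adjusted p = 0.0627) and against HepWT replicate 1 libraries alone (0.13, adjusted p = 0.0966).

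Srxn1 (ENSMUSG00000032802, chr2:152105516-152111376, plus strand) encodes sulfiredoxin, which repairs over-oxidised peroxiredoxins. In HepKO its library pairs held 41.8 and 42.1 CPM at ZT2, 42.5 and 42.3 at ZT6, 33.2 and 35.3 at ZT10, 36.8 and 36.2 at ZT14, 47.9 and 47.5 at ZT18, and 41.9 and 36.1 at ZT22. The HepWT pairs held 44.0 and 42.9 CPM at ZT2, 34.2 and 38.9 at ZT6, 29.0 and 37.5 at ZT10, 28.4 and 24.8 at ZT14, 34.2 and 36.0 at ZT18, and 33.3 in both at ZT22. At 4 times the HepKO pair lay above the HepWT pair, at ZT2 it lay below, and at ZT10 the pairs overlapped. Srxn1 was 1.17-fold higher in HepKO (log2 0.22 ± 0.04, 95% interval 0.13 to 0.32, adjusted p = 0.00108), positive at 5 of 6 times, and the call stood in every alternative run.

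Txnrd1 (ENSMUSG00000020250, chr10:82833951-82897712, plus strand), the cytosolic thioredoxin reductase, had 132, 148 and 165 CPM (lowest, median, highest) in HepKO, against 111, 145 and 161 CPM in HepWT. The medians were close, and the HepWT libraries of ZT6 and ZT14 lay below every HepKO library. Its log2 difference was 0.08 ± 0.04 (95% interval 0.00 to 0.16, adjusted p = 0.130), positive at 3 of 6 times. Nqo1 (ENSMUSG00000003849, chr8:107388225-107403206, minus strand), the quinone reductase often used as a readout of NRF2, was low in liver, with 4.09, 5.50 and 8.72 CPM in HepKO, against 3.47, 5.99 and 7.45 CPM in HepWT. The genotypes overlapped at 5 of 6 times, and the log2 difference was 0.01 ± 0.13 (95% interval -0.27 to 0.29, adjusted p = 0.965), a sign that changed in 12 of the alternatives run.

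**Figure D2:**
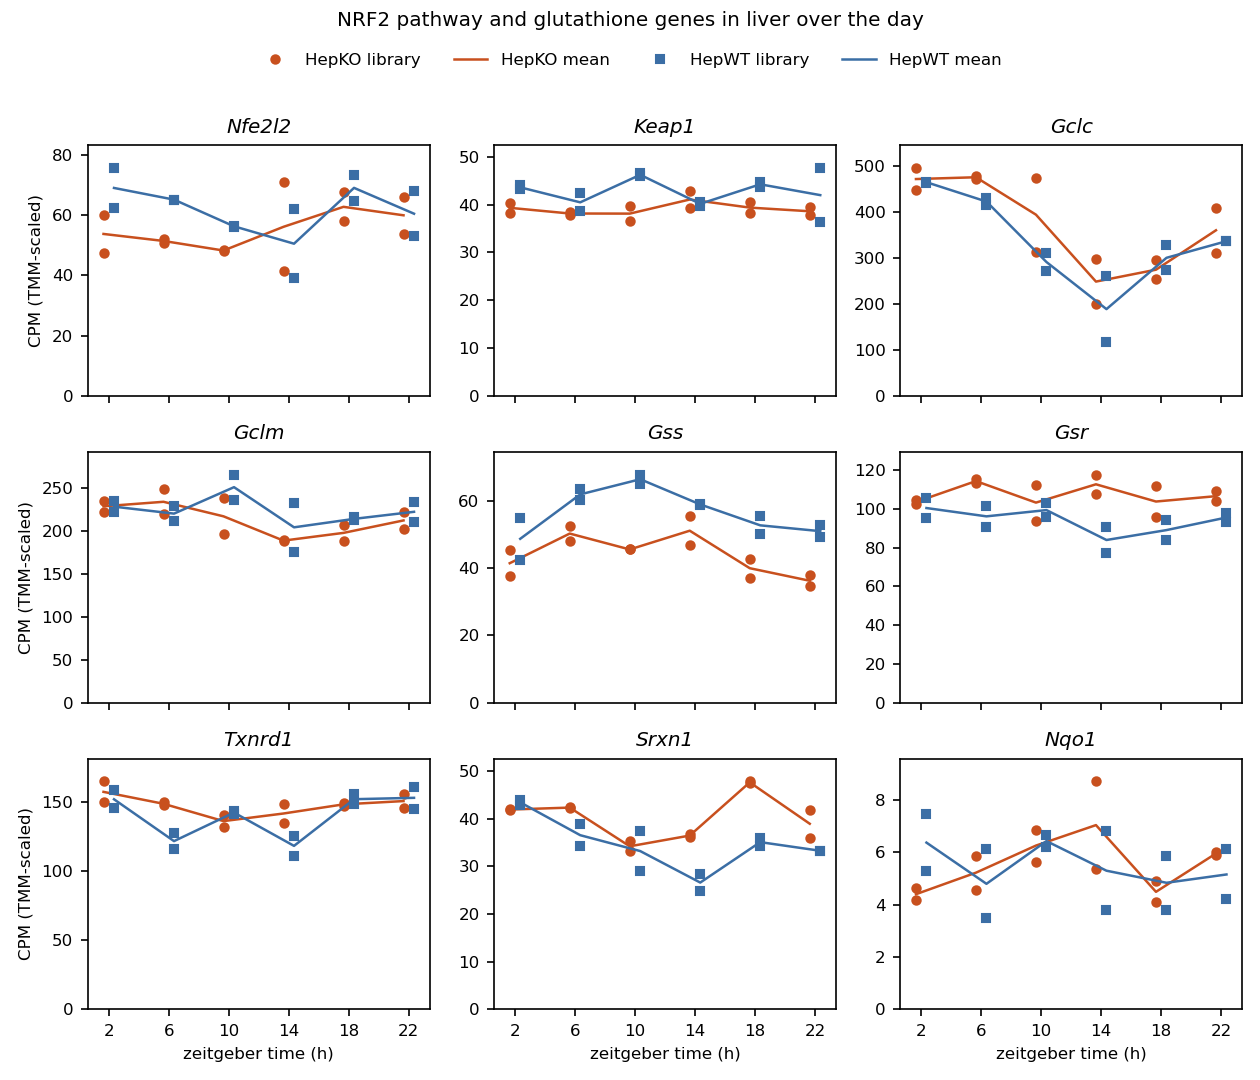
CPM (scaled by trimmed means, axis from 0) of each tested gene at 6 zeitgeber times, with 1 point per library and lines through the mean of 2 libraries, HepKO in orange and HepWT in blue. Gss lies lower in HepKO at every time, Gclc falls to its lowest mean at ZT14 in both genotypes, and Srxn1 parts from HepWT at ZT14 and ZT18.

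At single times, 4 of 54 pairs of gene and time passed. Gss was lower in HepKO at ZT10 (log2 -0.54 ± 0.12, adjusted p = 0.00935), when 7.71% of all genes passed. Gsr was higher at ZT14 (0.42 ± 0.11, adjusted p = 0.0231) and so was Srxn1 (0.46 ± 0.11, adjusted p = 0.0143), when 7.64% of all genes passed. At ZT18 Srxn1 was higher (0.44 ± 0.11, adjusted p = 0.0269), when 3.79% passed. None of the 9 passed at ZT2, ZT6 or ZT22, when 1.86%, 4.96% and 1.35% of all genes did. Gss at ZT22 (-0.50, adjusted p = 0.0593) and ZT18 (-0.40, adjusted p = 0.0867), and Txnrd1 at ZT6 (0.29, adjusted p = 0.0786), came near the threshold.

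Leaving out 1 library at a time gave log2 differences of -0.56 to -0.51 for Gss at ZT10 and 0.40 to 0.47 for Srxn1 at ZT18. At ZT14 it gave 0.32 to 0.56 for Gsr and 0.37 to 0.57 for Srxn1. The signs held, but with 2 libraries a side each of the 4 calls could be lost in this way. All 4 were lost without the 5 libraries of low depth, with log2 differences of -0.52 for Gss, 0.36 for Gsr, and 0.47 and 0.45 for Srxn1 at ZT14 and ZT18. Each of the 4 libraries of ZT10 ended the call of Gss when left out (HepKO replicate 1 -0.53, HepKO replicate 2 -0.54, HepWT replicate 1 -0.51, HepWT replicate 2 -0.56), and each of the 4 libraries of ZT18 ended that of Srxn1 (HepKO replicate 1 0.44, HepKO replicate 2 0.45, HepWT replicate 1 0.40, HepWT replicate 2 0.47). Gsr at ZT14 was lost without HepKO replicate 2 (0.37) or HepWT replicate 2 (0.32) of that time, and Srxn1 at ZT14 without HepKO replicate 1 (0.45) or HepWT replicate 2 (0.37). No gene of the 9 passed the test of an interaction of genotype with time, in edgeR or in DESeq2, against 1.12% of all genes in edgeR. At an unadjusted p below 0.05 in edgeR there were 2, Srxn1 (0.0207) and Txnrd1 (0.0424). The 1.12% is at the adjusted threshold, and the share of all genes at the unadjusted one was not computed.

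**Figure D3:**
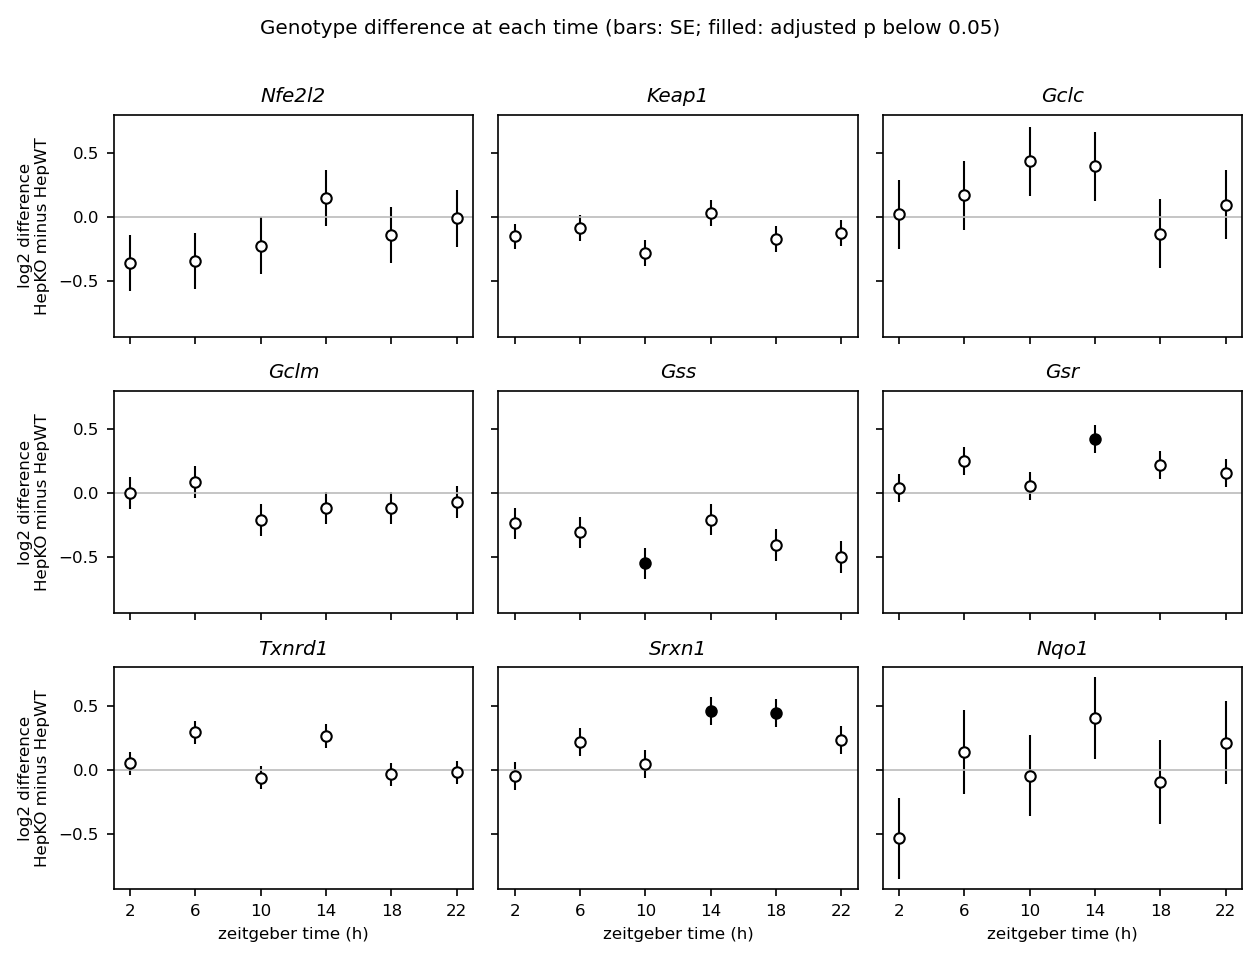
Log2 difference of HepKO minus HepWT at each zeitgeber time for the 9 tested genes (points; bars are SE of the edgeR fit; filled points have an adjusted p below 0.05). All 6 points of Gss lie below 0 and all 6 of Gsr above it, and the filled points are Gss at ZT10, Gsr at ZT14, and Srxn1 at ZT14 and ZT18.

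Daily rhythm was next fitted as a 24 h wave in each genotype, where amplitude is the log2 distance from mean to peak. In HepKO 2 of 9 genes passed, Gclc and Gss, against 14.3% of all genes, and in HepWT 3 passed, Gclc, Gss and Srxn1, against 30.3%. Gclc peaked in the first hours of the light phase in both. Its amplitude was 0.49 ± 0.11 (SE) with a peak at ZT 4.18 ± 0.82 in HepKO (adjusted p = 0.0112), and 0.55 ± 0.11 with a peak at ZT 2.53 ± 0.75 in HepWT (adjusted p = 0.0019). The highest time mean was 1.91 times the lowest in HepKO (475 CPM at ZT6, 248 CPM at ZT14) and 2.46 times in HepWT (464 CPM at ZT2, 189 CPM at ZT14). That HepWT mean of ZT14 joins libraries of 260 and 117 CPM. Leaving out 1 library gave Gclc amplitudes of 0.43 to 0.53 in HepKO and 0.41 to 0.61 in HepWT. The rhythms of Gclc were not shown to differ between genotypes (adjusted p = 0.743).

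Gss peaked late in the light phase in both genotypes. Its amplitude was 0.22 ± 0.05 with a peak at ZT 9.87 ± 0.94 in HepKO (adjusted p = 0.0267), and 0.21 ± 0.05 with a peak at ZT 10.2 ± 0.97 in HepWT (adjusted p = 0.0127), with an adjusted p of 0.993 for the difference. Srxn1 had an amplitude of 0.13 ± 0.06 in HepKO (adjusted p = 0.374) and 0.25 ± 0.06 in HepWT, where it peaked at ZT 2.18 ± 1.00 (adjusted p = 0.0170); the difference of these rhythms had an adjusted p of 0.478. None of the 9 genes passed the test of a difference between rhythms, and none had an unadjusted p below 0.05, against 1.5% of all genes that passed. The 6 genes with no call had amplitudes of 0.03 to 0.21 in HepKO and 0.01 to 0.16 in HepWT.

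The rhythm of Gclc passed in both genotypes whichever single library was left out (highest adjusted p 0.0350 in HepKO and 0.00622 in HepWT). The calls of Gss and Srxn1 did not always pass. Their amplitudes were then 0.19 to 0.26 for Gss in HepKO, 0.19 to 0.24 for Gss in HepWT and 0.20 to 0.28 for Srxn1 in HepWT. Without the 5 libraries of low depth neither HepKO call passed (Gclc 0.62, adjusted p = 0.0624; Gss 0.23, adjusted p = 0.194). In HepKO that of Gss was lost without ZT6 replicate 2 (0.20), ZT18 replicate 1 (0.21), ZT22 replicate 1 (0.19) or ZT22 replicate 2 (0.22), and in HepWT without ZT10 replicate 1 (0.20). The HepWT call of Srxn1 was lost without ZT2 replicate 1 (0.22), ZT2 replicate 2 (0.23), ZT14 replicate 1 (0.24) or ZT14 replicate 2 (0.20). Gclm passed in HepKO without HepWT ZT14 replicate 2 (0.15, adjusted p = 0.0422). Txnrd1 passed in HepWT without ZT10 replicate 1 (0.19, adjusted p = 0.0220) or ZT10 replicate 2 (0.19, adjusted p = 0.0269).

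**Figure D4:**
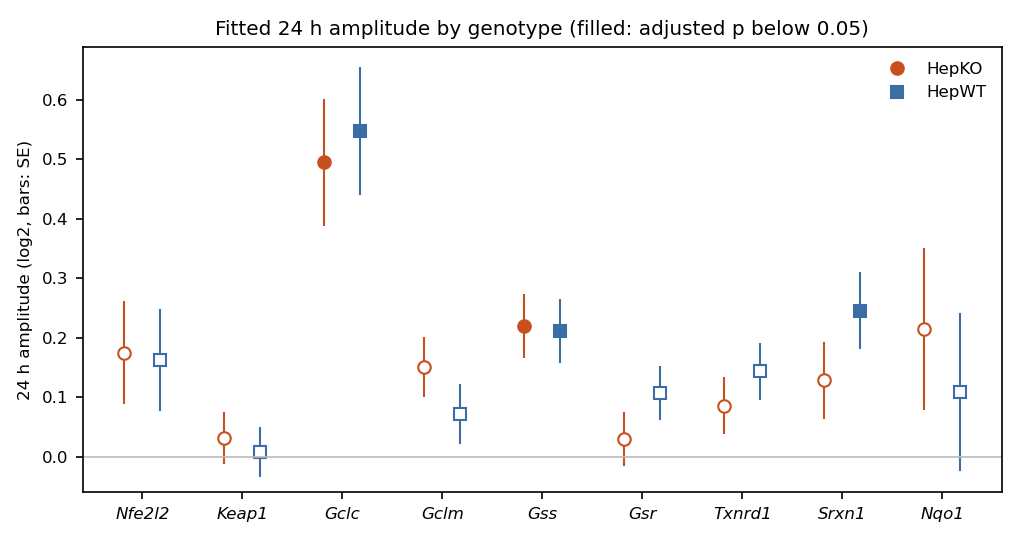
Fitted 24 h amplitude (log2, mean to peak; bars are SE) of the 9 tested genes in HepKO (orange circles) and HepWT (blue squares); filled symbols have an adjusted p below 0.05. Gclc stands highest at 0.49 in HepKO and 0.55 in HepWT, the symbols of Gss lie side by side at 0.22 in HepKO and 0.21 in HepWT, and Keap1 is nearly flat at 0.03 in HepKO and 0.01 in HepWT.

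Some libraries were low for several of these genes at once. HepWT ZT14 replicate 2 was the lowest of the 12 HepWT libraries for 6 of 9 genes (Nfe2l2, Gclc, Gclm, Gsr, Txnrd1 and Srxn1), and HepKO ZT10 replicate 1 was the lowest of the 12 HepKO libraries for 4. The lowest HepKO time mean fell at ZT10 for 5 genes and at ZT14 for 2, whereas the lowest HepWT time mean fell at ZT14 for 7. Without HepWT ZT14 replicate 2, 4 of the 9 genes still passed the averaged test. Within the 12 groups of 2, the library with more Nfe2l2 was also the library with more Gclc in 10, with more Keap1, Nqo1 or Txnrd1 in 8 each, with more Gsr or Srxn1 in 7 each, with more Gclm in 6 and with more Gss in 5. The shares of all tested genes with the same lowest library, lowest time or higher library were not computed. Whether these counts are particular to the 9 genes therefore cannot be told.

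Over the 24 libraries, which share genotype, time and depth, the log2 CPM of Nfe2l2 was most like that of Bcar3 (Pearson r = 0.87), Dusp10 (0.82), Plk2 (0.81), D930048N14Rik (0.81) and Irf1 (0.80) among all tested genes. Its r with the other members ran from -0.05 for Gss to 0.46 for Keap1. Gclc was most like Evi5 (0.90), Mug-ps1 (0.89), Rfc3 (0.89), Mcc (0.89) and Elf1 (0.89), and among the members it was closest to Gclm (0.63), Srxn1 (0.56) and Gsr (0.55). These values describe likeness only.

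Per kilobase of exon, Gclc stood highest, with 98.3 ± 27.3 CPM per kb in HepKO and 88.6 ± 26.6 CPM per kb in HepWT (SD, n = 12). Gsr (39.0 in HepKO, 34.2 in HepWT) and Gclm (33.9 in HepKO, 35.5 in HepWT) followed and changed places between genotypes. Txnrd1 came next (20.8 in HepKO, 19.8 in HepWT), then Nfe2l2 (14.6 in HepKO, 16.2 in HepWT) and Srxn1 (14.3 in HepKO, 12.3 in HepWT). Keap1 (8.34 in HepKO, 9.12 in HepWT) and Gss (7.46 in HepKO, 9.57 in HepWT) also changed places, and Nqo1 had 3.58 in HepKO and 3.53 in HepWT. The neighbours Gsr and Gclm, Nfe2l2 and Srxn1, and Keap1 and Gss lay within the spread of their libraries in at least 1 genotype. The union of annotated exons served as length, which overstates the length of genes with rarely used exons.

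The start regions of these genes were read next, because NRF2 acts through antioxidant response elements and the clock protein lost here binds E-boxes. RefSeq promoters of GRCm38.p6, from 250 bases before to 50 after a start, were found for 8 of the 10 genes (10 starts, 3 of them of Txnrd1); Gclc and Gsr were not matched. The core TGACNNNGC was searched on both strands and occurred in 4 of the 10, against 12.4% of 32851 promoters of the same length. The E-box CACGTG occurred in none of the 10, against 7.15%, so the motifs did not overlap here. The 4 matches are printed as 21 bases, each read in the direction of the motif, with the motif in capitals. They show how the letters of the core and its flanks vary among these starts.
Nfe2l2, 240 bases before the start, chr2:75704889-75704909, minus strand: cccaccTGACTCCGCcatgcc
Gclm, 134 bases before the start, chr3:122245417-122245437, minus strand: gagagtTGACGGTGCgcccgg
Txnrd1 (the start at 82859206), 92 bases before it, chr10:82859108-82859128, minus strand: tcagaaTGACAAAGCaaaaat
Srxn1, 28 bases after the start, chr2:152105546-152105566, minus strand: tcactcTGACCTAGCtgccca

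The match before Nfe2l2 reads along the gene, and the other 3 read against it. A match is a run of letters and not a measured site, and looser forms of the core were not searched. The upstream 250 bases of Srxn1 (chr2:152105274-152105523, plus strand), the gene with the largest increase, and of Gclm (chr3:122245307-122245556, plus strand), a known NRF2 target that did not pass, are shown side by side; capitals mark the core in reverse, which the Srxn1 stretch lacks.
Srxn1 upstream: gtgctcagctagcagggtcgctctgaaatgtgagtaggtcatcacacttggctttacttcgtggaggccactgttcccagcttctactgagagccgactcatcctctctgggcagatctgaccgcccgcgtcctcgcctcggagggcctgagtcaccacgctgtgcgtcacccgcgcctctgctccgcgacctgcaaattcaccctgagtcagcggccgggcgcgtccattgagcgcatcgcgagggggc
Gclm upstream: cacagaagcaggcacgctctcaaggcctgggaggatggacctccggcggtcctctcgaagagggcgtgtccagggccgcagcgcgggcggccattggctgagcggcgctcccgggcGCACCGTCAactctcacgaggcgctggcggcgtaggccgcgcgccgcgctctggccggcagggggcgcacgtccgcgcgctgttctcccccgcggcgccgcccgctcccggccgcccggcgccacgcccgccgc

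Genes around the pathway were counted in lists written with earlier results of these data known. Each is set beside the 26.5% of all genes called, as a description and not as a test of the list. That share is of the fit to all 24 libraries. Without the 5 libraries of low depth 2886 of 17873 tested genes were called, 51.6% of them higher, against 4572 of 17275 with all libraries. Counts of that setting below are to be set beside the former. The part of the smaller number of samples in the lost calls was not tested. Of 16 NRF2 regulators and partners 2 were higher and 4 lower in HepKO (median log2 -0.06). The small MAF gene Maff had 0.910 ± 0.379 CPM in HepKO and 2.69 ± 1.94 CPM in HepWT (SD, n = 12), 2.48-fold lower in the fit (adjusted p = 2.4e-05). Bach1, whose product competes with NRF2 at its elements, averaged 44.0 CPM in HepKO and 59.5 CPM in HepWT (log2 -0.39 ± 0.08, adjusted p = 0.00157). The kinase gene Prkci (log2 0.15, adjusted p = 0.00486) and Fbxw11, a subunit of another ligase that targets NRF2 (0.13, adjusted p = 0.0109), were slightly higher; Prkci lost its call against HepWT replicate 2 libraries alone (0.14, adjusted p = 0.0615) and Fbxw11 without the 5 libraries of low depth (0.13, adjusted p = 0.111). Without the 5 libraries of low depth 1 of the 16 was higher and 2 were lower.

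Other NRF2 target genes split both ways, with 12 higher, 10 lower and 18 not called of 40 (median -0.01). The glutathione S-transferases Gstm2 and Gstm3 showed the largest increases. Gstm2 had 239 ± 21.4 CPM in HepKO and 42.0 ± 11.2 CPM in HepWT, 5.85-fold higher in the fit (adjusted p = 2.63e-13). Gstm3 had 359 ± 86.9 CPM in HepKO and 53.4 ± 17.7 CPM in HepWT, 6.84-fold higher (adjusted p = 2.06e-10). For Gstm1 the means were 1883 ± 185 CPM in HepKO and 786 ± 128 CPM in HepWT (log2 1.27 ± 0.08, adjusted p = 1.91e-09). In all 3 the HepKO pair lay above the HepWT pair at 6 of 6 times. The cytochrome gene Cyp2a5 had 165 ± 33.8 CPM in HepKO and 665 ± 419 CPM in HepWT (3.26-fold lower, adjusted p = 8.02e-08). Gstm and Cyp2a genes share sequence with close relatives, so reads could be split among them and these values are uncertain. Without the 5 libraries of low depth 9 were higher and 8 lower.

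Of 32 tested genes of glutathione use, turnover and recycling 7 were higher and 12 lower (median -0.04). Glo1, glyoxalase, which uses glutathione to clear methylglyoxal, was higher (426 ± 46.0 CPM in HepKO, 301 ± 54.6 CPM in HepWT, log2 0.51 ± 0.06, adjusted p = 5.24e-06), as was Gstk1 (log2 0.26, adjusted p = 2.07e-05). Oplah, oxoprolinase, which returns glutamate from the breakdown of glutathione, was lower (106 ± 6.30 CPM in HepKO, 139 ± 16.4 CPM in HepWT, log2 -0.38 ± 0.04, adjusted p = 1.15e-06), as was Gpx7 (log2 -1.31, adjusted p = 1.8e-05) at a low level (0.857 CPM in HepKO, 2.06 CPM in HepWT). Without the 5 libraries of low depth 5 were higher and 11 lower.

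Cysteine and methionine supply, which feeds glutathione synthesis, leaned to higher levels in HepKO, with 10 higher and 3 lower of 21 (median 0.16). Bhmt, which remethylates homocysteine with betaine, had 5240 ± 763 CPM in HepKO and 2436 ± 913 CPM in HepWT (2.26-fold higher, adjusted p = 5.74e-08). Cbs, the first enzyme of transsulfuration, had 513 ± 36.9 CPM in HepKO and 317 ± 122 CPM in HepWT (1.71-fold higher, adjusted p = 2.7e-07). Slc1a4, a carrier of small neutral amino acids, had 12.8 ± 2.85 CPM in HepKO and 5.73 ± 2.50 CPM in HepWT (2.39-fold higher, adjusted p = 2.36e-07). Without the 5 libraries of low depth 7 were higher and 2 lower.

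The thioredoxin and peroxiredoxin system had 7 higher and 3 lower of 18 (median 0.02). Prdx1, an abundant peroxiredoxin, had 848 ± 43.3 CPM in HepKO and 676 ± 49.0 CPM in HepWT (log2 0.33 ± 0.04, adjusted p = 2.22e-05). Prdx3 (0.17, adjusted p = 0.00194), its mitochondrial relative, and Txn1 (0.15, adjusted p = 0.00403), thioredoxin, were higher and Msrb1 (-0.19, adjusted p = 0.000391), a methionine sulfoxide reductase, was lower. The count changed to 4 higher and 1 lower without the 5 libraries of low depth, to 4 higher against HepWT replicate 1 libraries alone, and to 1 lower without HepWT ZT14 replicate 2. Of 13 other antioxidant enzymes 3 were higher and 5 lower (median -0.06), and 2 were higher and 2 lower without the 5 libraries of low depth. Selenop, the selenium carrier of plasma, had 3898 ± 275 CPM in HepKO and 5779 ± 503 CPM in HepWT (1.48-fold lower, adjusted p = 2.63e-07), and Pon1, paraoxonase, had 908 ± 80.9 CPM in HepKO and 646 ± 68.6 CPM in HepWT (1.41-fold higher, adjusted p = 1.16e-06). The metallothionein gene Mt2 had 0.145 to 3.75 CPM in HepKO and 0.498 to 33.6 CPM in HepWT (log2 -2.46 ± 0.56, adjusted p = 0.00334), and its log2 difference was -1.44 (adjusted p = 0.00992) against HepWT replicate 1 libraries alone. Pon2, a relative of Pon1, was higher (log2 0.22, adjusted p = 0.00394), a call lost against HepWT replicate 1 libraries alone (0.13, adjusted p = 0.130).

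**Figure D5:**
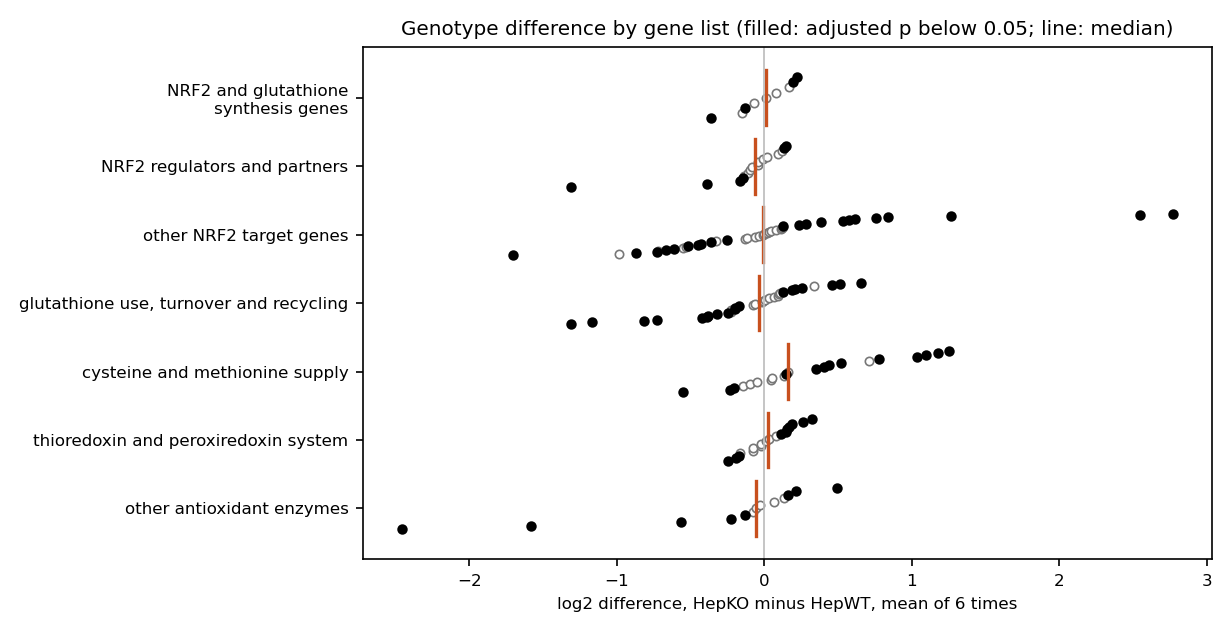
Log2 difference of HepKO minus HepWT, averaged over 6 times, for every tested gene of each list (1 point per gene; filled points have an adjusted p below 0.05; the bar is the list's median). The 9 NRF2 and glutathione synthesis genes lie between -0.36 and 0.22, while the other target genes run from -1.71 for Cyp2a5 to 2.77 for Gstm3.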

How the data were processed

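Liver total RNA of 24 mouse samples was sequenced after ribosomal RNA depletion with a stranded kit, per the labels' protocols. The deposited table holds raw counts, whole numbers per gene and library without normalization; per the submitters' processing notes the authors used STAR 2.4.0i and build mm10. No source used here names the counting tool, its strand setting or its annotation.

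Counts of all genes were fitted with edgeR 4.0.16 (R 4.3.3; TMM scaling; genes kept by filterByExpr with at least 10 counts in a group's libraries and 15 in total; quasi-likelihood F test, two-sided; Benjamini-Hochberg adjustment over all tested genes, threshold 0.05). A model of 12 groups gave the genotype differences and the interaction, and a wave of 24 h fitted per genotype gave the rhythms. SDs over 12 libraries include the change over the day. CPM describe levels, and fold changes come from the fits, as means of log2 values.

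The genes and lists were chosen with earlier results of these data known. Up to 4 called genes of smallest p per list are named; 1 of them is not reported here. Alternatives were DESeq2 1.42.0, limma-voom (limma 3.58.1), DESeq2 size factors, no filter or a stricter one, the replicate number as a block, an added 12 h wave, single-genotype fits, and leaving out libraries; those on the lists without some libraries were added after seeing the data. Replicate numbers did not pair libraries (correlations -0.0893 to 0.0526 at 6 times). The scripts were tested on simulated data. Positions and exon lengths are from GENCODE M21 (GRCm38), and sequences from RefSeq (GRCm38.p6). Replicates differed by 9.77 to 64.2 times the counting variance, so the spread between libraries set the precision.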

Additional observations from a re-analysis of the deposited data

Results flagged for a closer look

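No gene of the 9 tested stood out between genotypes in its course over the day, but 4 named genes of the surrounding lists did. Among all genes 1.12% passed for the interaction and 1.5% for the difference between rhythms. The 4 were named for their averaged difference, so they are not a count over the lists. Of the NRF2 regulators and partners, Mafk (adjusted p = 0.0159) and Sqstm1 (adjusted p = 0.0494) also passed in rhythm. For each gene the difference itself was tested with edgeR. Cyp2a5 differed in its genotype difference between times, with an interaction adjusted p of 0.00813, and in rhythm, with an adjusted p of 0.00235 (amplitudes 0.09 in HepKO, 1.37 in HepWT, log2). For Cbs these were 0.0220 and 0.0104 (amplitudes 0.12 in HepKO, 0.66 in HepWT). Bhmt (adjusted p = 0.0044, amplitudes 0.10 in HepKO, 0.68 in HepWT) and the kinase gene Prkci (adjusted p = 0.0170, amplitudes 0.06 in HepKO, 0.26 in HepWT) differed in rhythm only by this test.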

How the results depend on the processing

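Depth and replication limit these results. With 2 libraries per group, the single-time calls and the rhythm calls of Gss and Srxn1 could be lost on leaving out 1 library. The 5 HepKO libraries of low depth are all replicate 2. Leaving those 5 out took the genes past the threshold among the 9 to 2 for the averaged difference (2886 of 17873 genes in all). The differences at single times went to 0 (1669 calls in all) and rhythm in HepKO to 0 (173 genes in all). That fit also had fewer samples. The part of sample number, depth or other traits of these libraries in the lost calls was not tested. With no filter on low counts 8 pairs of gene and time passed, against 4. Among all 32732 genes of that fit 9171 such pairs passed. The main fit called 321, 857, 1332, 1320, 654 and 233 of 17275 genes at ZT2, ZT6, ZT10, ZT14, ZT18 and ZT22. The sign of the averaged Nqo1 difference reversed without the 5 libraries (-0.023) and against HepWT replicate 1 libraries alone (-0.069). Leaving out each library in turn gave -0.049 to 0.10 for Nqo1, 3 to 5 genes for the averaged difference, 2 to 6 pairs at single times (2 without HepWT ZT14 replicate 2), 0 for the interaction, 1 to 3 genes for rhythm in HepKO (1 without ZT6 replicate 2, ZT18 replicate 1, ZT22 replicate 1 or ZT22 replicate 2), 2 to 4 for rhythm in HepWT and 0 for the difference between rhythms; a group left with 1 library was taken to vary as the rest do. Txnrd1 in HepWT also passed for rhythm under the stricter filter (0.15, adjusted p = 0.0457). DESeq2 and limma-voom each called 4 of the 9 for the averaged difference, and DESeq2 called 5 pairs at single times. The shares of all genes called by these tools are not given here, so these counts describe the 9 genes only. The replicate block left the counts at 4, 4, 0, 2, 3 and 0, and changed no call. DESeq2 size factors moved the median of all genes by 0.0005 (log2).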
